A study of Gallus gallus with 45 samples.

Results

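The jejunum of broiler line X was compared between day 16 and day 4 after hatch. The comparison took the 8 arrays labelled line X at 16 days (pools 17 to 24) and the 8 labelled line X at 4 days (pools 9 to 16), which are 16 of the 45 arrays of the series. It was made over all 25527 probes that passed a filter on dim probes, and it is described here for the 3716 genes, of 4612 named on the array, that had a kept probe with a gene symbol. Each array was a one-colour Agilent chicken array hybridised with Cy3-labelled RNA of whole jejunal tissue from 1 pool of 10 birds. The study followed 2 genetically different broiler lines, X and Y, at days 0, 4 and 16, and reared them at the same time in separate pens with free access to feed and water. The labels name no treatment besides line and age, and they do not give the sex of the birds. For line X the series also holds 7 pools at day 0, and line Y has 8 pools at day 16 and 7 at day 4. Below, these are set beside the changes of line X. All 45 arrays also entered the filter on dim probes and the estimate of spread. The 8 arrays of each age lay on a slide of their own, so that slide and age cannot be told apart, and a pool shows the mean of its birds and not their individual spread.

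The jejunum is the part of the small intestine in which most nutrients are absorbed, by enterocytes that cover the villi and are renewed from dividing cells in the crypts. Below this epithelium lie a lamina propria with blood vessels and immune cells, and a muscle coat with the neurons and glia of the enteric nervous system. A chick hatches with an immature intestinal immune system, with antibody passed on by the hen through the yolk, and with an intestine that has to change from yolk to feed. T cells, B cells and antibody-producing plasma cells of its own settle in the intestine in the weeks after hatch, while defensins and other innate peptides are already present, and embryonic forms of hemoglobin give way to adult ones.

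Among the largest increases at day 16 were genes of antibody production and of T cells, the protease MMP7, the lysozyme LYG2 and the fibrinogen chain FGG. Among the largest decreases were a beta-defensin, a hatching-type hemoglobin, the pancreatic polypeptide gene PPY and genes of enteric neurons and connective tissue. Of the 3716 genes, 417 (11.2 %) were higher and 748 (20.1 %) lower at day 16 than at day 4, in limma's test with an adjusted p under 0.05 and a fold change over 1.3. Over all kept probes, 3606 (14.1 %) were higher and 5266 (20.6 %) lower. Decreases were more frequent but mostly small, since 120 genes were higher and 101 lower by more than 1 on the log2 scale, and 18 were higher and 8 lower by more than 2. The median log2 difference (day 16 minus day 4) over all genes was -0.08, with quartiles of -0.33 and 0.15, and the median SE of a gene was 0.097. In 614 genes (16.5 %) the 8 pools of one age all lay above the 8 pools of the other, and 551 of these passed the test. The split between directions depended on the processing. In an alternative, the processed signal of the feature extraction software was scaled to each array's 75th percentile. There 601 genes were higher and 676 lower, and 47.1 % of the called genes were higher, against 35.8 % with the deposited values. Signal, background correction and scaling all differ between these, so that their parts in the shift cannot be told apart. The arrays of day 16 were dimmer, with median raw intensities of 78 to 170, against 141 to 195 at day 4, and the part of brightness in the counts was not tested.

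The tissue label was checked with enterocyte genes, which were bright at both ages. APOA1 (apolipoprotein A-I), VIL1 (villin, the bundling protein of microvilli) and ANPEP (aminopeptidase N of the brush border) were saturated on all 16 arrays. Their log2 differences of -0.01, -0.01 and 0.02 therefore carry no information on size. Of the 3 kept probes of APOA1, 1 was called lower, with a difference of -0.66. FABP2, the intestinal fatty acid binding protein, was saturated in 1 of 8 pools at day 16 and in 8 of 8 at day 4. Of the list of enterocyte markers 16 of 17 matched members passed the filter, 0 were higher and 2 lower, and their summed level on the log2 scale was 19.19 to 19.32 at day 16, against 19.23 to 19.38 at day 4. Of these members 9 were saturated on at least 1 of the 16 arrays, which limits that sum. The 7 others had a summed level of 16.18 to 16.52 at day 16, against 16.32 to 16.545 at day 4, with overlap. SLC15A1, the peptide transporter PepT1, had log2 values of 14.63 to 14.90 (median 14.77) at day 16, against 14.63 to 14.86 (median 14.72) at day 4, a difference of 0.04 (adjusted p 0.684) with overlapping pools. Marker genes of liver were present. The 10 of 18 matched members that passed the filter had a summed level of 16.08 to 16.11 at day 16, against 16.06 to 16.30 at day 4. The saturated APOA1 is also on that list and limits this sum. Without it the summed level was 12.14 to 12.52 at day 16, against 11.54 to 13.89 at day 4. Pancreas markers, of which 4 of 14 matched members passed, had a summed level of 12.02 to 13.07 at day 16, against 11.70 to 12.28 at day 4, with 2 higher and 0 lower. The higher ones were CPA5, a carboxypeptidase, and GCG, the glucagon gene that the intestine also expresses. In a fit without the filter 5 of 14 were higher and 0 lower, with a median of 0.74, among them genes of pancreatic digestive enzymes, PRSS2 (1.27), PRSS3 (1.18) and AMY2A (0.95), and the colipase gene CLPS (1.21). At day 16 CLPS was well above background in 1 of 8 pools, PRSS2 in 4, AMY2A in 7 and PRSS3 in 8. At day 4 these counts were 0, 1, 3 and 7. The day 16 values of CLPS had a median of 4.64 and a highest pool of 9.50, and those of PRSS2 a median of 5.2 and a highest pool of 8.63. The part of pancreatic RNA in other results was not tested.

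Genes of antibody production were higher at day 16. JCHAIN, the joining chain of polymeric IgA and IgM, had log2 values between 8.63 and 9.37 (median 8.93) at day 16, against 3.37 to 5.69 (median 3.66) at day 4. In none of the day 4 pools was its probe well above background, so that JCHAIN was at least 21.1-fold higher at day 16 (5.07 ± 0.21 on the log2 scale, SE; adjusted p 4.49e-24), and the only day 4 pool over 5 was pool 13. That minimum holds for the deposited values, and a background offset of 50 in place of 1, which compresses dim signals, gave 3.09 for JCHAIN on the log2 scale. POU2AF1, the B cell transcriptional coactivator OCA-B, had values between 7.13 and 8.10 (median 7.61) at day 16, against 3.04 to 5.96 (median 3.83) at day 4. The lowest day 16 pool was above the highest day 4 pool by more than 1 log2 unit, and the difference was 3.62 ± 0.25 (adjusted p 8.02e-16), or 1.87 with the offset of 50. CD79B, the signalling chain of the B cell receptor, had values between 9.18 and 9.92 (median 9.63) at day 16, against 5.04 to 6.80 (median 6.09) at day 4. All 8 day 16 pools again stood above all 8 day 4 pools, with a difference of 3.58 ± 0.28, or 12-fold (adjusted p 1.68e-14).

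PIGR, the receptor that carries polymeric immunoglobulin through the epithelium into the lumen, differed by 2.76 (adjusted p 4.13e-25). It was saturated in 7 of the 8 day 16 pools and in none at day 4, where it lay between 12.72 and 13.52 (median 13.24), so that its 6.79-fold increase is limited by the scanner. CD72, a regulatory receptor of B cells, had values of 7.12 to 8.02 (median 7.62) at day 16, against 3.89 to 5.97 (median 4.49) at day 4. The ages did not overlap, and CD72 differed by 2.92 (adjusted p 1.26e-12). Only 2 of the 8 day 4 pools gave a CD72 signal clearly brighter than background, which limits that size. The smallest CD72 difference under the alternatives run was 1.67. TNFSF13B, the B cell survival factor BAFF, rose by 2.38 (adjusted p 3.46e-21), and each of its 3 kept probes was called higher. In the list of B cell and antibody genes, 17 of 27 matched members passed the filter, and 12 were higher, 0 lower and 5 not called, with a median of 1.26 against -0.08 over all genes. Without the filter 17 of 27 were higher and 1, the transcription factor EBF1, lower (-0.78), with a median of 0.79. The summed level of the list was 17.50 to 17.59 at day 16, against 16.92 to 17.06 at day 4, but without the 2 members saturated on any of the 16 arrays, the epithelial gene PIGR among them, it was 15.78 to 16.03 at day 16, against 15.57 to 15.91 at day 4, and the ages overlapped. In whole tissue, more cells of a type and more RNA per cell cannot be told apart, here and in all lists that follow.

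**Figure D1:**
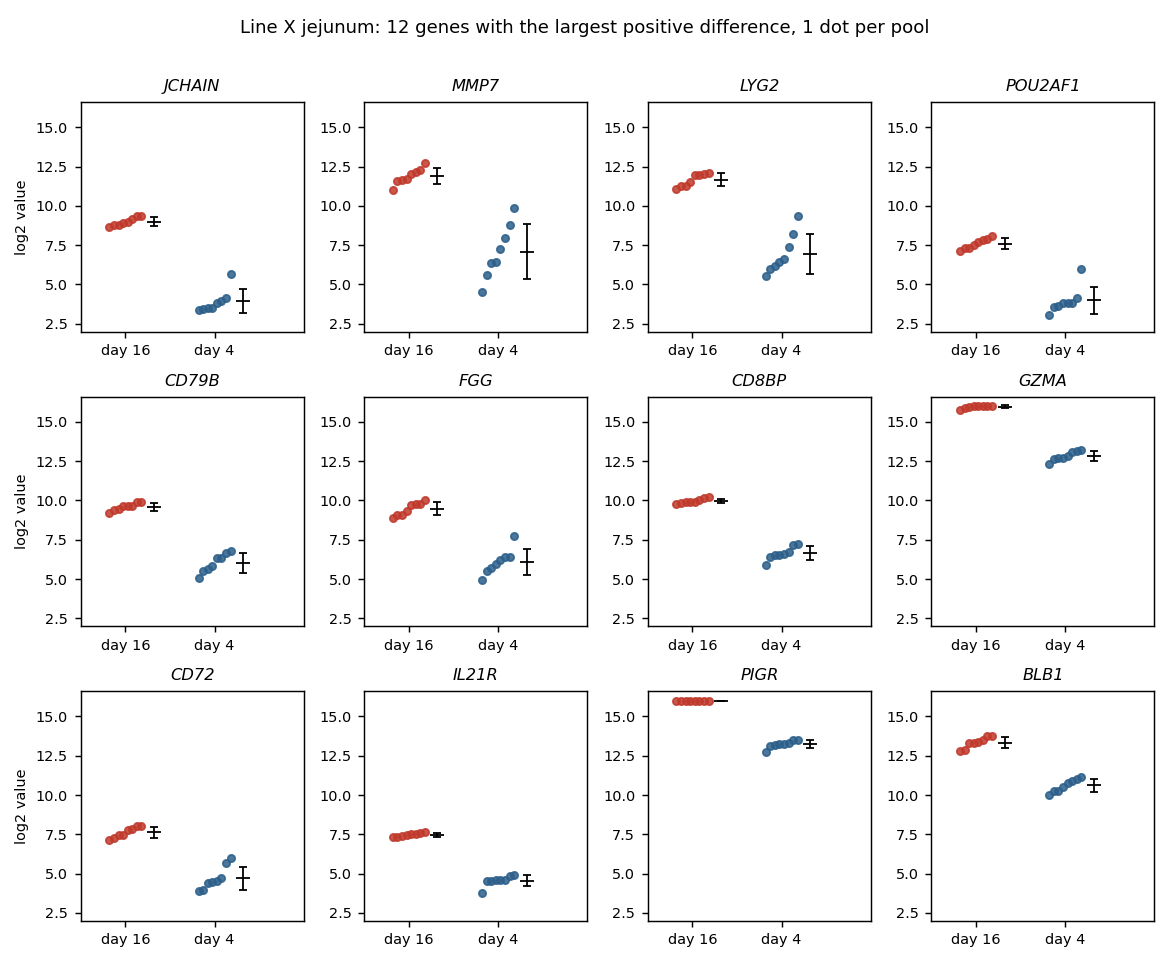
Normalised log2 values of the 12 genes with the largest increase whose pools did not overlap, with 1 point per pool of 10 birds of line X, day 16 left of day 4, pools in order of value, and the mean and SD beside them. In each gene all 8 day 16 pools lie above all 8 day 4 pools, and GZMA and PIGR reach the upper limit of 16 at day 16.

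Genes of T cells and natural killer cells were higher as a group. Of 18 of 30 matched members that passed the filter, 16 were higher, 0 lower and 2 not called, with a median difference of 1.55, and the summed level was 17.68 to 17.82 at day 16, against 15.86 to 16.13 at day 4. Without the 3 members saturated on any array it was 14.98 to 15.10 at day 16, against 14.04 to 14.29 at day 4, still without overlap. Among the parts of the T cell receptor complex, CD3E had values between 13.12 and 13.46 (median 13.29) at day 16, against 11.55 to 11.76 (median 11.63) at day 4. The ages were separated in all pools, with a difference of 1.64 ± 0.08 (3.12-fold, adjusted p 1.53e-21), and its 3 kept probes were all higher. CD247, the zeta chain of the complex, rose by 2.30 (adjusted p 8.7e-22), and CD3D by 1.55 (adjusted p 3.49e-17) with 6 of 8 day 16 pools saturated. CD8BP, listed with the synonym CD8B (the CD8 beta chain of cytotoxic T cells), had values between 9.76 and 10.22 (median 9.90) at day 16, against 5.87 to 7.25 (median 6.57) at day 4. A difference of 3.33 ± 0.14, or 10.1-fold (adjusted p 1.84e-23), separated all pools of the ages.

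The genes of cytotoxic granules rose too. GZMA, the protease granzyme A, had values between 15.73 and 16.00 (median 15.99) at day 16, against 12.32 to 13.21 (median 12.78) at day 4, and 6 of the 8 day 16 pools were saturated. Its difference of 3.12 ± 0.15 (adjusted p 1.83e-21) followed an increase of 5.88 between day 0 and day 4, when its median at day 0 was 6.93. GNLY, the chicken NK-lysin gene of the same granules, rose by 1.75 (adjusted p 9.57e-21), also with 6 of 8 day 16 pools saturated. Among receptors that act on activated T cells, the co-stimulatory receptor CD28 rose by 1.46 (adjusted p 7.22e-14), its inhibitory counterpart CTLA4 by 1.68 (adjusted p 8.8e-11), and LAG3, another inhibitory receptor, by 2.35 (adjusted p 1.76e-18). IL21R, the receptor for interleukin 21, was not well above background in any day 4 pool and was at least 6.24-fold higher at day 16, with values of 7.31 to 7.64 (median 7.48) at day 16, against 3.76 to 4.93 (median 4.58) at day 4, while the offset of 50 gave a log2 difference of 1.63. Of the list, 12 members were removed by the filter, since in no group did they reach the limit on every array, although some were well above background in all 8 day 16 pools. In a fit without the filter, 25 of 30 matched members were higher and 0 lower.

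The phagocyte and antigen presentation genes moved in the same direction, in smaller part. MMP7, the secreted protease matrilysin, had values between 10.998 and 12.75 (median 11.87) at day 16, against 4.52 to 9.86 (median 6.84) at day 4. The day 4 pools were spread over more than 5 log2 units, with pool 9 highest, but none reached the day 16 pools, and the difference was 4.80 ± 0.58 (adjusted p 3.33e-09). LYG2, a goose-type lysozyme, had values between 11.05 and 12.10 (median 11.74) at day 16, against 5.56 to 9.37 (median 6.52) at day 4, and pool 9 was again the highest day 4 pool. It differed by 4.69 ± 0.42 (25.8-fold, adjusted p 1.09e-12). EXFABP, a lipocalin known in the chicken for binding bacterial siderophores, rose by 1.74 (adjusted p 0.00438), but its day 4 pool 10, at 14.15, stood above all day 16 pools. PTPRC, the CD45 antigen of all leukocytes, rose by 1.75 (adjusted p 7.5e-19), and FCER1G, the signalling chain of Fc receptors, by 1.44 (adjusted p 8.54e-15). Of the macrophage and heterophil genes, heterophils being the avian counterpart of neutrophils, 24 of 31 matched members passed the filter, with 13 higher, 1 lower and 10 not called and a median of 0.50. Their summed level was 16.81 to 17.02 at day 16, against 16.23 to 16.92 at day 4, and here the ages overlapped.

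Of the genes for the major histocompatibility complex (MHC) and antigen presentation, 6 were higher, 1 lower and 6 not called, among 13 of 15 matched members that passed, with a median of 0.36. BLB1, a class II beta chain, had values between 12.79 and 13.78 (median 13.35) at day 16, against 10.03 to 11.15 (median 10.63) at day 4. No pool overlapped, and the difference was 2.72 ± 0.17 (6.57-fold, adjusted p 6.73e-18), but class II beta genes of the chicken are close copies and a probe may read both. DMA and DMB2, which load peptide onto class II molecules, rose by 1.34 (adjusted p 4.15e-14) and 1.00 (adjusted p 1.47e-10). CD74, the invariant chain, was saturated on all 16 arrays on its brightest probe, which gave no size, while its other kept probe was called higher by 1.56 and the mean of both gave 0.78 (adjusted p 1.265e-09).

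Among the signals that call and steer leukocytes, 5 chemokine genes were higher and 2 lower of 10 of 17 matched members that passed, with a median of 0.77. CCL1 had values between 11.49 and 12.17 (median 11.76) at day 16, against 9.45 to 9.79 (median 9.59) at day 4, a difference of 2.16 ± 0.10 without overlap (adjusted p 1.56e-22). CCL5, an attractant of T cells, rose by 1.44 (adjusted p 5.55e-13) and CCL4, an attractant of monocytes, by 1.27 (adjusted p 0.0137). In contrast, CXCL14, a chemokine made in epithelia, fell by 1.18 (adjusted p 6.22e-13), after an increase of 1.35 between day 0 and day 4. Of the cytokines and their receptors 7 were higher, 3 lower and 16 not called, among 26 of 50 matched members that passed, and the median was 0.18. IL22, the cytokine that acts on epithelial defence and repair, had values between 7.75 and 8.86 (median 8.75) at day 16, against 4.33 to 7.62 (median 6.84) at day 4. It differed by 1.98 ± 0.35 (adjusted p 8.67e-06) without overlap, and IL10RA, the receptor chain for interleukin 10, rose by 1.66 (adjusted p 3.12e-14).

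The interferon response genes did not follow the lymphocyte genes. Of 18 of 20 matched members that passed the filter, 3 were higher, 6 lower and 9 not called, with a median of -0.03. MX1, an antiviral GTPase, had values between 10.11 and 11.45 (median 10.63) at day 16, against 11.55 to 12.85 (median 11.82) at day 4. The ages did not overlap and MX1 fell by 1.298 ± 0.26 (adjusted p 4.48e-05), and the 2 highest day 4 pools were 10 and 12. The same pools were highest at day 4 for LY6E, a membrane protein induced by interferon, which fell by 1.08 (adjusted p 1.57e-06), and for IFIH1, the RNA sensor MDA5, which fell by 0.94 (adjusted p 9.65e-06). Not all members fell, since GBP, a guanylate binding protein, rose by 0.84 (adjusted p 7.51e-05). Of the pattern recognition receptors and their signalling genes, 4 were higher and 3 lower among 18 of 21 matched members that passed, with a median of 0.15. TRAF5, an adaptor of receptors of the tumour necrosis factor family, rose by 2.20 (adjusted p 4.31e-27), and TLR7, the receptor for single-stranded RNA, by 0.92 (adjusted p 1.16e-10).

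Antimicrobial genes went in both directions. AvBD10, an avian beta-defensin, had the largest decrease of all genes, with values between 4.83 and 6.001 (median 5.28) at day 16, against 9.33 to 11.19 (median 10.60) at day 4. The lowest day 4 pool was more than 3 log2 units above the highest day 16 pool. The difference was -5.09 ± 0.24, a 34-fold decrease (adjusted p 1.34e-21), and its 3 kept probes were all lower. The median of AvBD10 at day 0 was 13.67, and the gene changed by -3.13 between day 0 and day 4. CATHB1, a cathelicidin peptide, had values between 5.19 and 5.64 (median 5.40) at day 16, against 6.01 to 7.44 (median 6.84) at day 4, and fell by 1.40 (adjusted p 1.64e-09). LYZ, the lysozyme C gene, rose by 0.94 (adjusted p 7.03e-07). In the list 5 were higher, 5 lower and 3 not called among 13 of 23 matched members that passed, with a median of -0.55, which was 0.67 when the limit on dim probes had to be passed at one of the 2 ages and fewer members remained. A further defensin, AvBD4, chosen after its values were seen, was removed by the filter. All 8 day 16 pools and 0 of the day 4 pools exceeded background clearly for it, and without the filter it was called higher. DEFB4A, also removed by the filter, was called lower without it (-1.57). In that fit 8 members of the list were higher and 6 lower of 23, with a median of -0.37.

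Of the called genes of smooth muscle, connective tissue, enteric nerves and vessels, most were lower at day 16. ACTA2, the smooth muscle alpha actin, had values between 11.61 and 12.13 (median 11.85) at day 16, against 12.62 to 13.24 (median 13.12) at day 4. Its pools did not overlap between ages and it fell by 1.14 ± 0.09 (2.2-fold, adjusted p 1.97e-14). ACTG2, the gamma actin of the gut muscle coat, fell by 1.13 (adjusted p 3.37e-06), with 5 of 8 day 4 pools saturated, and MYH11, the smooth muscle myosin heavy chain, fell by 0.70 (adjusted p 9.56e-08) on all 7 kept probes. Of 23 of 26 matched smooth muscle members that passed the filter, 1 was higher, 15 lower and 7 not called, with a median of -0.65, and the summed level was 17.31 to 17.98 at day 16, against 17.91 to 18.55 at day 4. Of the collagens and other matrix genes all 40 matched members passed the filter, and 0 were higher, 26 lower and 14 not called, with a median of -0.57 and a summed level of 17.84 to 18.30 at day 16, against 18.46 to 18.81 at day 4. COL1A2, a chain of the fibrous type I collagen, had values between 14.10 and 14.90 (median 14.44) at day 16, against 15.14 to 16.00 (median 15.62) at day 4, and fell by 1.15 (adjusted p 5.66e-09) without overlap. SERPINH1, the collagen chaperone HSP47, fell by 1.17 (adjusted p 1.58e-09). COL14A1, a collagen that binds to fibrils, fell by 1.78 (adjusted p 2.8e-16) on its brightest probe, with 5 of its 6 kept probes lower and 1 higher.

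In the enteric nervous system, 1 gene was higher, 12 lower and 8 not called among 21 of 31 matched members that passed, with a median of -0.57, and the summed level was 14.82 to 15.27 at day 16, against 15.17 to 15.59 at day 4. SLC18A3, the transporter that fills vesicles with acetylcholine, had values between 4.44 and 5.92 (median 5.31) at day 16, against 6.65 to 7.75 (median 7.04) at day 4, a difference of -1.88 ± 0.17 (adjusted p 2.71e-12). CHRNA3, a subunit of the acetylcholine receptor of autonomic neurons, had values between 5.62 and 5.98 (median 5.84) at day 16, against 7.52 to 8.00 (median 7.55) at day 4, a difference of -1.82 ± 0.11 (adjusted p 2.47e-18). For both genes the 8 day 16 pools all lay below the 8 day 4 pools, and both were already lower at day 4 than at day 0, with differences of -1.49 and -1.50. ELAVL4, a neuronal RNA-binding protein, fell by 1.56 (adjusted p 2.74e-15), KCNIP4, a subunit of neuronal potassium channels, by 1.57 (adjusted p 2.49e-11), and PTPRZ1, a receptor phosphatase of glial cells, by 1.89 (adjusted p 1.1e-12). At day 16 KCNIP4 and PTPRZ1 were well above background in 1 of 8 pools each, and SLC18A3 in 4 of 8. The smallest decreases of these 3 genes under the alternatives run were -0.67, -0.89 and -1.09. SOX10, the transcription factor of enteric glia, fell by 1.37 (adjusted p 1.09e-09), and VIP, the neuropeptide that relaxes gut muscle, by 0.97 (adjusted p 5.83e-11). Of the vessel markers 2 were higher and 8 lower among 14 of 17 matched members that passed, with a median of -0.54. Their summed level was 13.385 to 13.64 at day 16, against 13.40 to 13.71 at day 4, and the ages overlapped.

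**Figure D2:**
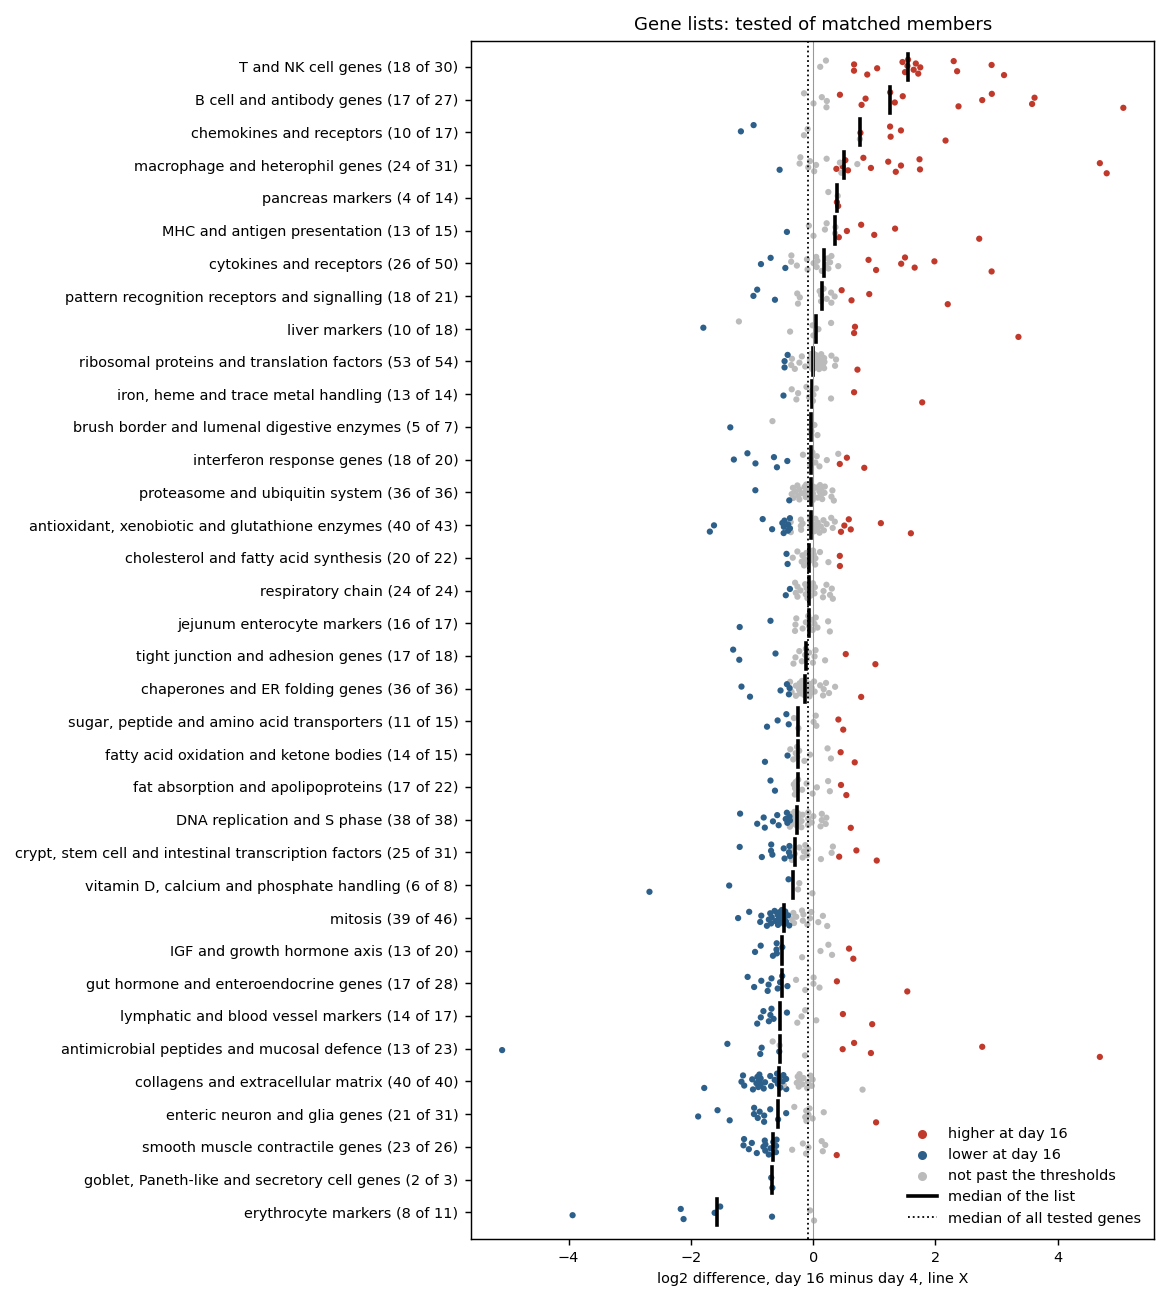
Log2 differences (day 16 minus day 4, line X) of the members of gene lists that passed the filter, with 1 point per gene (red higher, blue lower, grey not called), a bar at the list's median and a dotted line at the median of all 3716 genes, -0.08. The T and NK cell list (1.55) and the B cell list (1.26) lie to the right, the smooth muscle (-0.65), matrix (-0.57) and erythrocyte (-1.57) lists to the left.

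Called members of the muscle, matrix, nerve and vessel lists were thus mostly lower, while those of the lymphocyte lists were all higher. The summed smooth muscle and nerve levels overlapped slightly between the ages, and the summed vessel level overlapped over most of its range. The part of smooth muscle in the other results was not tested.

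**Figure D3:**
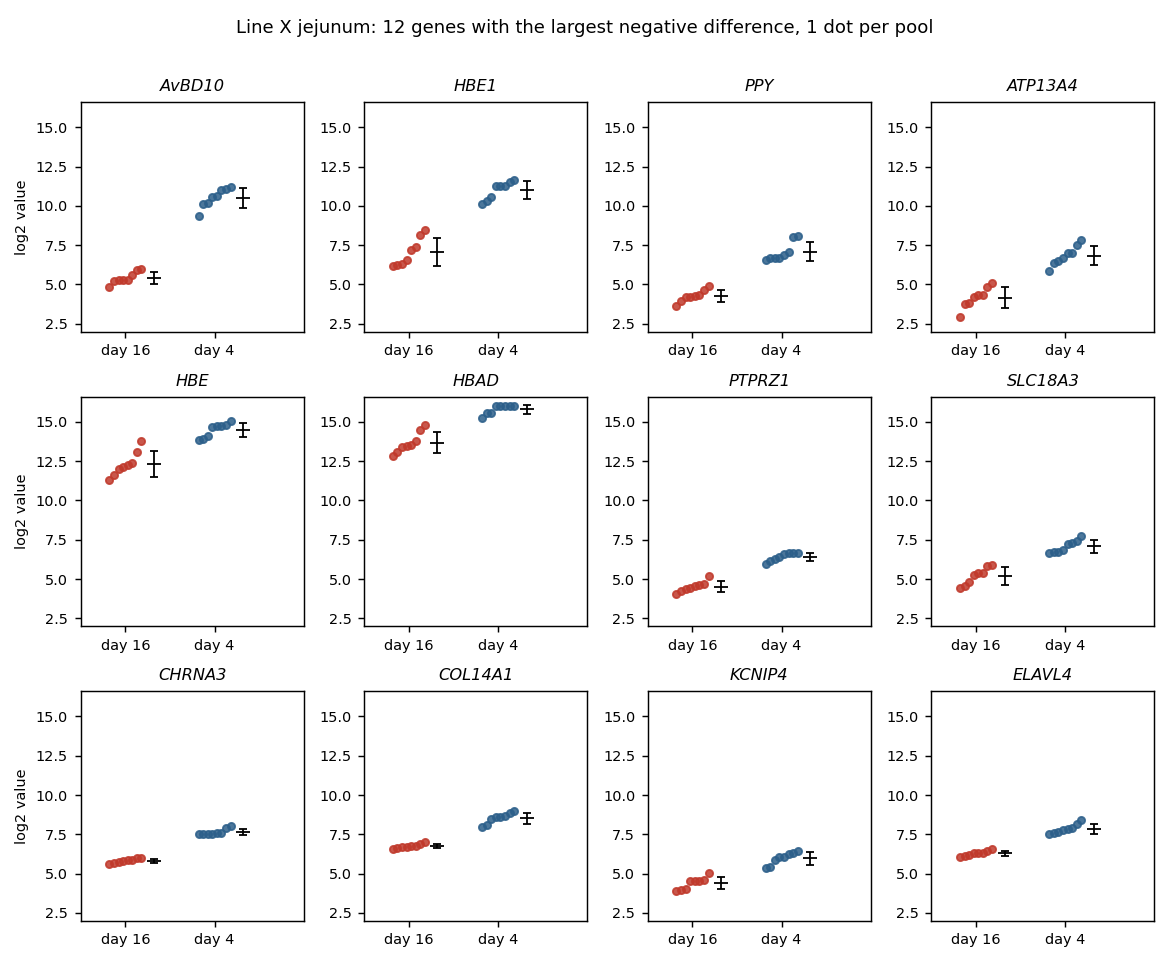
Normalised log2 values of the 12 genes with the largest decrease whose pools did not overlap, with 1 point per pool of 10 birds of line X, day 16 left of day 4, pools in order of value, and the mean and SD beside them. AvBD10 shows the widest gap between the ages, and the day 16 pools of HBE1 spread from 6.16 to 8.47.

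Called genes of cell division were mostly lower at day 16. Of the tested mitosis members 66.7 % were lower, and of the DNA replication members 31.6 %, against 20.1 % over all genes. Of 39 of 46 matched mitosis members that passed the filter, 0 were higher, 26 lower and 13 not called, with a median of -0.48 and a summed level of 16.67 to 16.90 at day 16, against 16.93 to 17.18 at day 4. PLK1, a kinase that drives entry into and exit from mitosis, had values between 8.75 and 9.52 (median 8.97) at day 16, against 10.03 to 10.60 (median 10.23) at day 4. It fell by 1.23 ± 0.14 (adjusted p 1.46e-09) without overlap, and SMC2, a condensin subunit that packs chromosomes, by 1.05 (adjusted p 4.9e-08). Of the 38 matched genes of DNA replication, which all passed the filter, 1 was higher, 12 lower and 25 not called, with a median of -0.27. RFC2, a subunit of the clamp loader, had values between 9.84 and 10.07 (median 9.98) at day 16, against 10.88 to 11.44 (median 11.13) at day 4, and fell by 1.20 (adjusted p 2.57e-17). Between day 0 and day 4, 22 mitosis genes were higher and 0 lower at day 4, and 21 replication genes were higher and 3 lower. For the transcription factors and signals of the crypt and of intestinal identity, 3 were higher and 10 lower among 25 of 31 matched members that passed, with a median of -0.30. HNF4A, the nuclear receptor that maintains enterocyte genes, had values between 7.73 and 8.996 (median 8.39) at day 16, against 9.02 to 9.95 (median 9.47) at day 4, and fell by 1.20 (adjusted p 2.03e-06). BMP4, a signal of the mesenchyme that restrains crypt growth, fell by 0.84 (adjusted p 1.65e-05), and CDX2, the intestinal homeobox factor, was saturated in 2 of 8 day 16 pools and in all day 4 pools, with a difference of -0.08 (adjusted p 0.421).

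Genes of red blood cells were lower at day 16. Of 8 of 11 matched erythrocyte members that passed the filter 0 were higher, 6 lower and 2 not called, with a median of -1.57, and the summed level was 15.62 to 17.28 at day 16, against 17.52 to 17.84 at day 4. HBE1, listed with the synonym HBBH (the hatching-type beta globin), had values between 6.16 and 8.47 (median 6.87) at day 16, against 10.09 to 11.67 (median 11.25) at day 4. All day 16 pools lay below all day 4 pools, with pools 17 and 18 highest among them, and the difference was -3.93 ± 0.29, a 15.3-fold decrease (adjusted p 3.49e-15). HBE, the embryonic epsilon globin, had values between 11.28 and 13.75 (median 12.20) at day 16, against 13.85 to 15.07 (median 14.69) at day 4, and fell by 2.17 (adjusted p 3.32e-10).

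The adult globins fell as well. HBAD, the alpha D chain, had values between 12.84 and 14.79 (median 13.52) at day 16, against 15.26 to 16.00 (median 15.99) at day 4, and fell by 2.12 (adjusted p 1e-12), with 5 of 8 day 4 pools saturated. HBBA, the adult beta chain, was saturated in all 8 day 4 pools and was at least 2.87-fold lower at day 16 in the deposited values (adjusted p 8.91e-08). The smallest HBBA decrease under the alternatives run was -1.29 on the log2 scale. HBA1, the alpha A chain, was likewise saturated at day 4 and was at least 1.59-fold lower (adjusted p 0.000123) in the deposited values, but its difference under 75th percentile scaling was -0.30 and not called (adjusted p 0.142). RHAG, a membrane protein of red cells that is no globin, fell by 1.61 (adjusted p 1.96e-09). The decreases were thus not confined to embryonic globins, although the globins are similar in sequence and how far a probe separates them was not tested. At day 0 the medians were 6.34 for HBE1 and 11.61 for HBAD, below all day 4 pools. The part of the blood content of the tissue in these values was not tested.

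**Figure D4:**
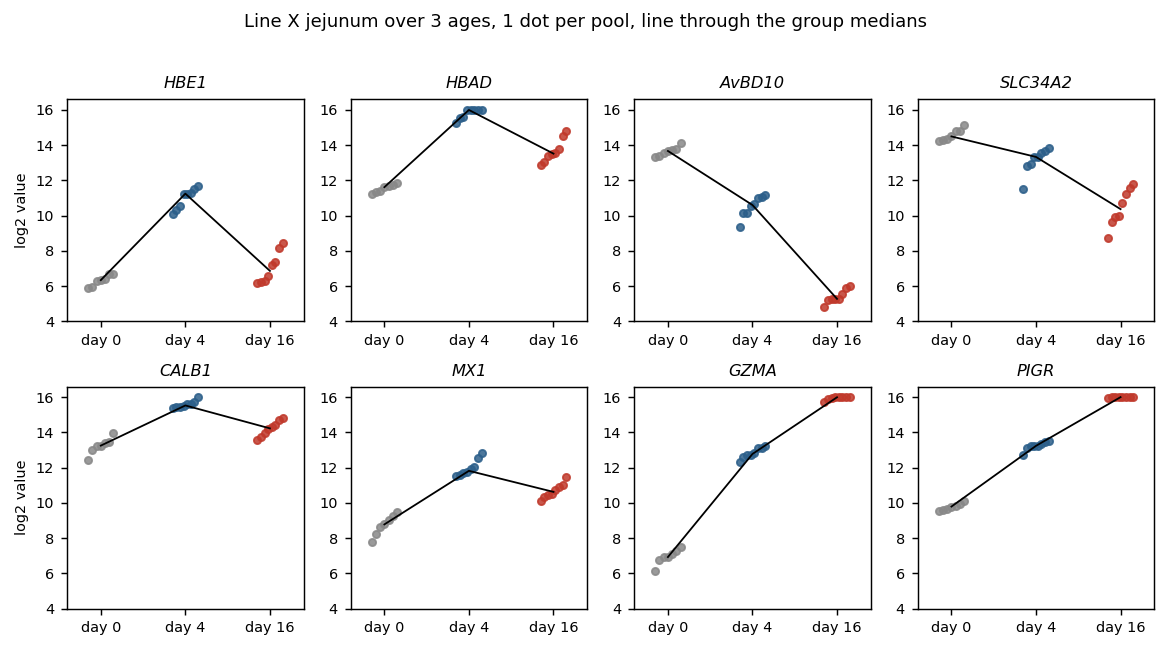
Normalised log2 values of 8 genes in line X at days 0, 4 and 16, with 1 point per pool and a line through the medians. HBE1, HBAD, CALB1 and MX1 peak at day 4, AvBD10 and SLC34A2 fall at both steps, and GZMA and PIGR rise at both.

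The step between day 0 and day 4 shares the day 4 arrays with the later step and is given only side by side. Between day 0 and day 4, 901 genes (24.2 %) were higher and 837 (22.5 %) lower at day 4. The T and NK cell list had a median of 1.01 in the early step and 1.55 in the later one, and the B cell list 0.60 and 1.26. JCHAIN, POU2AF1 and CD79B, with early differences of -0.20, 0.18 and 0.28, did not pass the test before day 4. However, JCHAIN was well above background in 0 pools at day 0 and at day 4, and POU2AF1 in 1 pool at each. For JCHAIN and POU2AF1 the early test thus compares values near background and cannot show a lack of change. The interferon response list had a median of 1.14 in the early step, with 14 higher and 2 lower, and -0.03 in the later one. Antigen presentation genes had 12 higher and 0 lower early, with a median of 0.94. The cholesterol and fatty acid synthesis genes, of which 15 were higher and 1 lower by day 4 with a median of 1.70, had 2 higher and 2 lower after it, with a median of -0.06.

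The genes of digestion and transport changed in single members more than as groups. SLC34A2, the sodium-phosphate cotransporter of the brush border, had values between 8.75 and 11.78 (median 10.37) at day 16, against 11.52 to 13.86 (median 13.33) at day 4. Only day 4 pool 12 lay within the day 16 range, and the difference was -2.68 ± 0.29, a 6.4-fold decrease (adjusted p 2.42e-10), after a change of -1.46 between day 0 and day 4. CALB1, the calcium-binding protein calbindin of absorbing enterocytes, had values between 13.56 and 14.83 (median 14.23) at day 16, against 15.40 to 15.99 (median 15.53) at day 4, without overlap. It fell by 1.37 (adjusted p 1.96e-09) after an increase of 2.33 between day 0 and day 4. Of the list for vitamin D, calcium and phosphate, 6 of 8 matched members passed, with 0 higher and 3 lower and a median of -0.33. MME, the brush border peptidase neprilysin, fell by 1.36 (adjusted p 4.66e-10), and was the only digestive enzyme called among 5 of 7 matched members that passed. Of the sugar, peptide and amino acid transporters 2 were higher and 4 lower among 11 of 15 that passed. SLC6A4, the serotonin transporter, fell by 0.76 (adjusted p 1.09e-06).

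In fat metabolism most members were not called, which also held for all genes, of which 31.4 % were called. CD36, a fatty acid transporter, fell by 0.63 (adjusted p 0.00267) on its brightest probe, with 1 of 3 kept probes lower. Among the genes of fat absorption 2 were higher and 2 lower of 17 of 22 that passed, with a median of -0.25, and for fatty acid oxidation 2 were higher and 2 lower of 14 of 15, with a median of -0.24. PDK4, the kinase that turns pyruvate dehydrogenase off during fat use, fell by 0.79 (adjusted p 3.15e-05), after a change of -1.89 between day 0 and day 4. Among enzymes of detoxification and antioxidants 6 were higher, 12 lower and 22 not called of 40 of 43, with a median of -0.04. GSTA4, a glutathione transferase, rose by 1.60 (adjusted p 7.52e-13), and GSTT1, another, by 1.11 (adjusted p 9.41e-07). ADH6, an alcohol dehydrogenase, fell by 1.62 (adjusted p 4.64e-07) and CYP2C18, a cytochrome P450, by 1.69 (adjusted p 4.55e-05), and between day 0 and day 4 they had changed by -3.09 and -4.07.

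More genes of gut hormones were lower than higher. PPY, the pancreatic polypeptide gene, is not on the list of gut hormones used here. It had values between 3.65 and 4.88 (median 4.23) at day 16, against 6.53 to 8.07 (median 6.78) at day 4. It was well above background in all 8 day 4 pools and in none at day 16, and was at least 5.1-fold lower at day 16 in the deposited values (adjusted p 2.69e-13), while the offset of 50 gave a log2 difference of -1.44. SCT, secretin, which stimulates pancreatic secretion of bicarbonate, fell by 0.74 (adjusted p 3.02e-07). NEUROD1, a transcription factor of enteroendocrine cells, rose by 1.54 (adjusted p 5.42e-09), after a change of -1.18 between day 0 and day 4. Of 17 of 28 matched members of the list that passed, 2 were higher, 10 lower and 5 not called, with a median of -0.51, and without the filter 3 were higher and 12 lower of 28, with a median of -0.29. Some, VIP among them, are also made by enteric neurons. Of the goblet and secretory cell list 2 of 3 matched members passed, and both, the transcription factors FOXA2 and SOX9, were lower, with a median of -0.68. ATP13A4, a cation-transporting ATPase outside these lists, was not well above background in any day 16 pool and was at least 4.35-fold lower at day 16 in the deposited values, with log2 values of 2.93 to 5.07 (median 4.26) at day 16, against 5.87 to 7.82 (median 6.83) at day 4, while the offset of 50 gave a difference of -1.29.

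Among genes made mainly by the liver, FGG, the gamma chain of fibrinogen, had values between 8.89 and 10.06 (median 9.50) at day 16, against 4.91 to 7.74 (median 6.10) at day 4. It differed by 3.36 ± 0.36 (adjusted p 2.09e-10) without overlap, whereas TTR, the carrier transthyretin, fell by 1.80 (adjusted p 2.88e-05). ALB, albumin, lay between 5.69 and 8.18 (median 7.02) at day 16, against 6.34 to 13.42 (median 6.84) at day 4, with day 4 pools 13, 15 and 16 at 9.16, 10.19 and 13.42. Its difference of -1.21 did not pass the test (adjusted p 0.252), and the list had 3 higher, 1 lower and 6 not called with a median of 0.04. In the insulin-like growth factor axis 2 were higher and 7 lower among 13 of 20 matched members that passed, with a median of -0.50. IGF2BP3, an RNA-binding protein of fetal growth, fell by 0.95 (adjusted p 0.0039), and IGFBP4, a binding protein of the growth factors, by 0.86 (adjusted p 2.27e-07). Of the junction genes 2 were higher and 3 lower among 17 of 18 that passed. CLDN1, a claudin of tight junctions, fell by 1.31 (adjusted p 3.25e-07) and GJB1, the gap junction protein connexin 32, by 1.21 (adjusted p 0.00328).

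Few of the genes that every cell uses were called in the deposited values. Of 53 of 54 ribosomal and translation genes that passed the filter, 1 was higher, 3 lower and 49 not called, with a median of 0.00. The respiratory chain had 0 higher and 2 lower among 24 (-0.07), the proteasome and ubiquitin genes 0 higher and 2 lower among 36 (-0.03), and the chaperones and folding genes 1 higher and 6 lower among 36 (-0.13). Iron and metal handling had 2 higher and 1 lower of 13 (-0.02). Of the ribosomal and translation genes 32, and of the respiratory chain genes 8, were saturated on at least 1 of the 16 arrays. The medians of these 2 lists therefore cannot show constant levels. The 21 other ribosomal and translation genes had a summed level of 18.45 to 18.71 at day 16, against 18.43 to 18.63 at day 4. Under scaling to the 75th percentile the median of the ribosomal list was 0.52, that of the respiratory chain 0.11 and that of the enterocyte markers 0.23. A saturated member sits at a fixed ceiling, and for it such scaling returns only the difference of the arrays' scale factors. The ribosomal median therefore cannot show a rise, and those of the respiratory chain and enterocyte markers are limited in the same way. The medians of the interferon response (0.03), tight junction (0.05), antioxidant (0.05), proteasome (0.03) and digestive enzyme (0.06) lists also turned positive under that scaling, and that of the liver list was -0.19 without the filter. The medians of the lymphocyte, muscle, matrix, nerve, mitosis and erythrocyte lists had the same sign under all alternatives tried.

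The change between day 4 and day 16 was set against that in line Y, which shares no array with it. In 1120 genes (30.1 %) the change in line X minus that in line Y passed the same thresholds, and 539 of these were also called in line X. The medians of the lists were 1.55 in line X and 1.43 in line Y for T and NK cell genes, 1.26 and 1.26 for B cell genes, -0.57 and -0.44 for matrix genes, and -1.57 and -1.18 for erythrocyte genes. They lay further from 0 in line X for nerve genes, with -0.57 in line X and -0.26 in line Y, smooth muscle (-0.65 and -0.38), mitosis (-0.48 and -0.26), vessels (-0.54 and -0.17) and DNA replication (-0.27 and -0.06), and had opposite signs for interferon response genes (-0.03 and 0.25). These differences of medians were not tested. JCHAIN, with 5.07 in line X and 5.58 in line Y, did not pass the test of the difference between lines (adjusted p 0.169). It was not well above background in any day 4 pool of either line, so that the sizes of its increases cannot be compared. HBE1, with -3.93 and -4.43, did not pass that test either (adjusted p 0.359).

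The largest differences between lines were in single genes. MT4, a metallothionein that binds zinc and copper, rose by 1.78 in line X and fell by 1.95 in line Y (difference of the changes 3.73, adjusted p 5.09e-05). In line X its day 16 pools, between 9.37 and 10.59 (median 9.75), overlapped the day 4 pools, which were between 6.27 and 9.69 (median 8.39). LMX1A, a homeobox transcription factor, changed by 1.08 in line X and -0.99 in line Y (adjusted p 3.38e-12). KCNA3, a potassium channel of lymphocytes and neurons, rose by 1.99 in line X, against -0.22 in line Y (adjusted p 6.41e-07), and EREG, the growth factor epiregulin, by 1.96, against -0.13 (adjusted p 6.39e-06).

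Genes of antigen presentation and immune receptors differed in part. CHIR-IG1-5, an immunoglobulin-like receptor of a large family of similar genes, rose by 1.95 in line X, against -0.77 in line Y (adjusted p 1.66e-06). In line X 1 of its 2 kept probes was called higher, and the other differed by 0.30. Its line X pools overlapped, with the lowest day 16 pool at 11.998 and the highest day 4 pool at 12.49. BLB1 rose by 2.72 in line X and 1.34 in line Y (adjusted p 1.03e-05), whereas DMA and DMB2 did not pass the test of the difference (adjusted p 0.634 and 0.286). TAP1, the peptide transporter of the class I pathway, rose by 0.55 in line X (adjusted p 0.0393) and 2.08 in line Y (adjusted p of the difference 0.00023), and its call in line X was lost without any one of day 16 pools 17, 22, 23 and 24 or day 4 pools 11, 13, 14 and 16 (differences of 0.43 to 0.54). CYP21A1, the steroid 21-hydroxylase, changed by -0.94 in line X and 0.58 in line Y (adjusted p 5.91e-07). How far sequence variants between the lines affect these probes was not tested.

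In further genes line X fell while line Y rose. TSHB, the beta chain of thyrotropin, changed by -0.70 and 0.91 (adjusted p 8.8e-08), DNMT3B, a DNA methyltransferase, by -0.92 and 0.57 (adjusted p 8.05e-14), and TRAFD1, an inhibitor of innate signalling, by -0.40 and 1.07 (adjusted p 1.79e-10). The TRAFD1 decrease in line X was just over the fold threshold and fell under it without day 16 pool 22 or day 4 pool 10 or 12 (-0.38, -0.32 and -0.37). DNMT3B was called lower in line X on 1 of its 2 kept probes, and the other differed by 0.18 and was not called. AvBD10 fell in both lines, by 5.09 in line X and 3.47 in line Y (adjusted p 0.000267). At day 16 it was near background in both, with medians of 5.28 in line X and 5.31 in line Y. It was then well above background in 7 and 5 of 8 pools. At day 4 the medians were 10.60 and 9.03, so that the difference between lines mostly reflects the day 4 values. The interferon genes MX1 and LY6E, which fell in line X, changed by -0.24 and 0.18 in line Y (adjusted p 0.0193 and 8.69e-05).

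**Figure D5:**
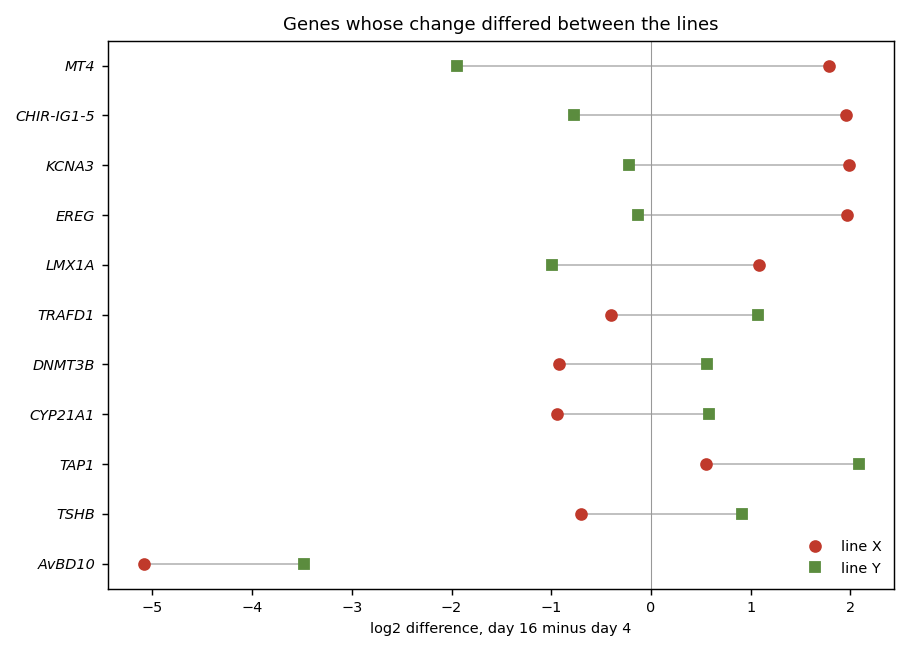
Log2 difference (day 16 minus day 4) in line X (circles) and line Y (squares) of called genes with large differences between the lines, 5 positive and 6 negative. MT4, CHIR-IG1-5, KCNA3, EREG and LMX1A are called higher at day 16 in line X and are not called higher in line Y, and TSHB, CYP21A1, DNMT3B and TRAFD1 fall in line X and rise in line Y.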

How the data were processed

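Gene expression was read on one-colour Agilent arrays, 1 array for each pool of 10 birds of line X or Y at day 0, 4 or 16. The authors deposited the raw spot intensities and a table of log2 values, made in R version 3.0.2 with limma by normexp background correction (offset 1), quantile normalisation and averaging of duplicate spots. Recomputing the log2 values from the intensities gave the deposited ones within 5e-09. Quantile normalisation gives every array the same distribution, with a top value of 16, so that overall shifts and saturated probes are flattened.

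The analysis started from the deposited log2 values. Dim probes were removed unless all arrays of some group showed a log2 value over 1.1 times that of the brightest dark corner spot on the array, which left 25527 of 43603 probes. Probes were named by matching RefSeq accessions to the RefSeq table of assembly GRCg7b (10381 probes, 4612 genes), and the kept probe with the highest mean over the 16 arrays stood for a gene. limma version 3.58.1 (lmFit, eBayes) in R version 4.3.3 was fitted to 45 arrays in 6 groups, with contrasts for day 16 minus day 4 in line X, day 4 minus day 0, and the change in line X minus that in line Y. Calls needed an adjusted p (Benjamini-Hochberg over kept probes) under 0.05 and a fold change over 1.3. The code was tested on simulated data. The package data.table (version 1.17.8), statmod 1.5.0 and matplotlib 3.10.9 in Python 3.11.15 were used. Where a gene was well above background in no pool of an age, or saturated in all, the fold is given as a minimum, in the first case against the dimmest signals well above background. Arrays within a group correlated by 0.976 to 0.992 and none were identical. Line Y pools 2 to 8 have conflicting ages in the labels and were used as day 0, where they enter the filter on dim probes and the estimate of spread, but none of the contrasts. P-values measure the spread between pools, for which separate housing is not given.

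Named genes were the 12 largest changes in each direction with no overlap of pools, up to 5 called members per list, markers of tissue and other cell types, and the 6 largest differences between lines in each direction, of which 1 is not reported here. AvBD4 and XCR1 and other genes removed by the filter were named after their values were seen. Members and the 36 gene lists were chosen with earlier results of these data known. Alternatives covered scaling, background offset, filter, probe choice, blocks and leaving out pools.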

Additional observations from a re-analysis of the deposited data

Results flagged for a closer look

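In 20 of 204 groups of pools tested, 1 pool stood apart from the others of its age by Dixon's criterion, which chance alone would give in about 1 of 20 groups. In the day 4 pools of genes that rose, these were JCHAIN in pool 13 at 5.693, POU2AF1 in pool 16 at 5.961, IL21R in pool 16 at 3.764, GNLY in pool 12 at 13.81, IL10RA in pool 12 at 6.085 and EXFABP in pool 10 at 14.15 on the log2 scale. Without pool 10, the difference of EXFABP was 2.19 in place of 1.74. In genes that fell, they were SLC34A2 in pool 12 at 11.52, ACTG2 in pool 12 at 14.85 and CYP2C18 in pool 14 at 9.925, without which CYP2C18 differed by -1.24. Pool 12 of day 4, which also had the highest dark corner spot of the 16 arrays, accounted for 4 of these. In the day 16 pools they were IL22 in pool 24 at 7.749, IGFBP4 in pool 22 at 12.84, and, in genes at or near saturation, GZMA in pool 22 at 15.73, PIGR in pool 24 at 15.96, and APOA1 and VIL1 in pool 17 at 15.95 and 15.95. The remaining ones at day 4 were also near saturation: FABP2 and VIL1 in pool 9 at 15.92 and 15.99, APOA1 in pool 10 at 15.98, ANPEP in pool 11 at 15.81 and CDX2 in pool 16 at 15.82.

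For 33 of the 102 named genes the change between day 4 and day 16 differed between the lines by limma's interaction test. A call needed an adjusted p under 0.05 and a difference over the fold threshold, which 1120 of 3716 genes (30.1 %) passed. Part of the named genes were chosen for such differences, so that the count is not a result about the named genes. The difference (line X minus line Y) is given first below, then the change in line X and that in line Y, all on the log2 scale. Among genes higher at day 16 in line X it was positive for MT4 (3.73, 1.78 and -1.95), CHIR-IG1-5 (2.72, 1.95 and -0.77), KCNA3 (2.21, 1.99 and -0.22), EREG (2.10, 1.96 and -0.13), LMX1A (2.07, 1.08 and -0.99), BLB1 (1.38, 2.72 and 1.34), GSTT1 (1.14, 1.11 and -0.03), FCER1G (0.617, 1.44 and 0.82) and PTPRC (0.498, 1.75 and 1.25). It was negative for TAP1 (-1.53, 0.55 and 2.08), IL22 (-1.41, 1.98 and 3.39) and PIGR (-0.553, 2.76 and 3.32). PIGR was saturated in 7 of 8 day 16 pools of each line, so that its difference reflects the day 4 values and does not show a smaller rise in line X. Among genes lower at day 16 in line X, those with a positive difference were GJB1 (1.56, -1.21 and -2.77) and SLC34A2 (1.20, -2.68 and -3.87), in which the decrease was smaller in line X, and PPY (0.853, -2.81 and -3.67), which was not well above background in any day 16 pool of either line, so that the sizes of its decreases cannot be compared. Defence genes with a negative difference were AvBD10 (-1.61, -5.09 and -3.47), LY6E (-1.26, -1.08 and 0.18), MX1 (-1.06, -1.298 and -0.24), IFIH1 (-0.887, -0.94 and -0.06), CATHB1 (-0.777, -1.40 and -0.63), TRAFD1 (-1.47, -0.40 and 1.07) and CXCL14 (-0.583, -1.18 and -0.60). AvBD10 was near background at day 16 in both lines, so that its difference mostly reflects the day 4 values. Of the named nerve and glia genes, the decrease was larger in line X in PTPRZ1 (-1.20, -1.89 and -0.69), SOX10 (-1.03, -1.37 and -0.33), SLC18A3 (-0.643, -1.88 and -1.24), CHRNA3 (-0.608, -1.82 and -1.22) and ELAVL4 (-0.477, -1.56 and -1.09). These genes were named for their large decreases in line X. In the nerve list 7 of 21 tested members passed the test of the difference, a share near the 30.1 % of all genes. The others were TSHB (-1.61, -0.70 and 0.91), CYP21A1 (-1.53, -0.94 and 0.58), DNMT3B (-1.49, -0.92 and 0.57), HNF4A (-0.759, -1.20 and -0.44), SERPINH1 (-0.689, -1.17 and -0.48) and PLK1 (-0.666, -1.23 and -0.56). Each of the 4 groups lay on its own slide, so that these differences cannot be told apart from slide effects.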

How the results depend on the processing

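Every named gene that was called kept its direction under the alternatives run, except COL14A1 (0.77 with the dim-probe limit applied within the 2 ages, where another probe represents the gene). APOA1 and VIL1, saturated on all 16 arrays, were not called, but passed as higher (0.59 and 0.60) under 75th percentile scaling. A saturated spot sits at a fixed ceiling, so that such scaling returns only the difference of the arrays' scale factors. These calls therefore carry no information on the genes. The same holds for ANPEP and the brightest probe of CD74, which were also saturated on all 16 arrays. Without the filter on dim probes, 5883 probes were higher. With the dim-probe limit applied within the 2 ages only, 3333 probes were lower. With no threshold on the fold change, 701 genes were higher, 1268 genes lower and 8198 probes lower, and with an absolute log2 difference over 1 the counts were 1136 probes higher, 666 lower, 120 genes higher and 101 lower. The other settings stayed within 1.5 times of the counts, among them an offset of 50 (388 genes higher and 653 lower), the 16 arrays alone (419 and 749), averaging the probes of each gene (504 and 670) and, chosen after seeing the data, pool 12 of day 4 set aside in the filter (417 and 750). With the pool number as a replicate block, 3603 probes were higher and 5266 lower, 417 genes higher and 747 lower, and 3994 probes had a higher and 5357 a lower change in line X than in line Y, against 3785 and 5137 without it. Pool numbers pair no birds. Even so, deviations of pools numbered alike in the 2 lines correlated by -0.1941 to 0.3277, over 0.1 in 10 of 15 pairs. The fit with that block estimated a correlation of 0.123. Deviations of same-position arrays of the 2 ages correlated by -0.033 to 0.2513. What such pools share was not tested, and the main fit does not model it. Leaving out each pool in turn gave 3481 to 3733 probes higher and 5048 to 5531 lower, 398 to 428 genes higher and 723 to 780 lower, and 3591 to 3920 and 4843 to 5298 probes for the difference between lines. Of the named genes, CD36 (-0.27) and DNMT3B (-0.37) with the mean of all probes, HBA1 (-0.30) and TRAFD1 (-0.30) under 75th percentile scaling, TSHB (-0.31) with an offset of 50 and TAP1 (adjusted p 0.0511) without the filter were no longer called, while CD74 (0.59) and ANPEP (0.62) under 75th percentile scaling and CD74 (0.78) with the mean of its probes became so. Of 93 called named genes, the fold moved by over 1.5 times in 15 with an offset of 50, all to smaller sizes, and in 11 under 75th percentile scaling, all to larger ones. The difference between lines was no longer called for PPY when any of 20 pools was left out (adjusted p 0.0519 to 0.0742) or without the filter (0.0581), for SLC18A3 with any of 12 (0.0501 to 0.0796), for HNF4A with any of 5 (0.0505 to 0.0585) and for IL22 without day 4 pool 15 of line Y (0.0564). Under 75th percentile scaling it was lost for CATHB1, ELAVL4 and PIGR. Saturation at the top and background at the bottom limit the sizes, and a day 16 to day 4 difference rests on 1 slide per age.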

Other observations

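Members of the lists that the filter removed were examined in a fit without it, since the limit was passed on every array by 20958 probes at day 16 and by 7724 at day 4. These genes were chosen after their values were seen. In the T cell list CD4, CD8A and TCF7 differed by 1.50, 1.36 and 1.79, each higher at day 16, and the chemokine receptor XCR1 of cross-presenting dendritic cells by 1.95. SLC2A2, the basolateral glucose transporter GLUT2 of enterocytes, differed by -2.33, and HBBR, the embryonic rho globin, by -3.44. FGA and FGB, the other 2 chains of fibrinogen, differed by -1.50 and -0.37, the first of them lower at day 16 and the second not called (limma, adjusted p 0.409), whereas FGG was higher by 3.36. At day 16 all 8 pools were well above background for TCF7, CD4, CD8A and XCR1, against 3, 5, 7 and 6 of 8 at day 4. For SLC2A2, HBBR and FGA it was 4 of 8 pools each at day 16, against 8 of 8 at day 4, and for FGB 2 of 8 at day 16, against 4 of 8 at day 4.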
